A study of Mus musculus with 8 samples.

Results

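The cytochrome P450 genes of the mouse lung were taken as the protein-coding genes whose symbol starts with Cyp followed by a digit. The count table holds 99 of them among its 23469 genes, and the 48 with 20 or more counts over all 8 libraries are described here. The other 51 had too few counts, and 34 of these had no count at all. The highest total left out was 19 and the lowest kept was 20. The study asked how gene expression in the lung differs between C57BL/6 wild type mice (WT) and DDAH1-transgenic mice (TG), with and without allergen. Both kinds of mice were given either 50 µl of PBS or 100 µg of house dust mite extract (HDM) in 50 µl of PBS into the trachea, 3 times a week for 3 weeks. Lungs were taken 24 h after the last challenge. DDAH1 degrades asymmetric dimethylarginine, an inhibitor of nitric oxide synthases. The promoter of the transgene and the age of the mice are not given in the sources used here. The 4 groups (WT PBS, WT HDM, TG PBS and TG HDM) are each represented by a single pool of RNA from 4 mice, from which 2 libraries were made. Each standard error and p-value below therefore measures the technical spread between libraries of one pool and holds no variation between mice.

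Cytochrome P450 enzymes are haem proteins that insert an oxygen atom into their substrate with electrons from P450 reductase or, in mitochondria, from ferredoxin. Families 1 to 3 oxidize foreign compounds, several others act on fatty acids and eicosanoids, and a smaller set makes or breaks down sterols, bile acids, vitamin D and retinoic acid. In the lung these enzymes are best known from club cells, the secretory cells of the airways, where Cyp2f2 turns inhaled compounds such as naphthalene into reactive products. The 48 genes were divided by these roles. The Cyp2j genes and Cyp2u1 were placed in the fatty acid and eicosanoid group, and Cyp2r1 in the sterol, bile acid and vitamin D group. Families 1 to 3 here and below means the family members without these. Of these families 22 of 51 genes were kept, and of the fatty acid and eicosanoid group 18 of 28. The sterol, bile acid and vitamin D group had 6 of 16, and the retinoic acid hydroxylases 1 of 3. The remaining gene, Cyp20a1, has no settled role. The families that dominate in liver were nearly absent, with 1 of 15 Cyp2c genes and 1 of 9 Cyp3a genes reaching 20 counts. Of 10 hepatocyte markers, 3 had no count and all 10 together reached between 0 and 3.44 CPM (CPM are counts scaled to library size, here by the TMM factors of all 8 libraries together).

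The libraries held between 5694928 and 11929374 counts, the fewest in TG HDM replicate 1. A count of 3, taken as the floor of detection, equals between 0.232 and 0.449 CPM. Xist, the RNA of the inactive X chromosome, lay between 11.3 and 20.8 CPM in the PBS libraries and between 2048 and 3040 CPM in the HDM libraries, and Ddx3y of the Y chromosome went from at least 58.7 CPM to at most 0.3 CPM. The HDM and PBS pools thus differed in these sex-linked RNAs in both genotypes, and treatment and sex of the pools cannot be told apart. Ddah1 itself was 76.9 and 53.8 CPM in TG PBS against 47.7 and 34.3 in WT PBS, a log2 fold change of 0.66 with an edgeR adjusted p of 0.358. In HDM it was 34.9 and 33.4 CPM in TG against 43.1 and 44.7 in WT (log2 fold change -0.32, edgeR adjusted p = 0.637). In HDM it was thus lower rather than higher in TG, and neither difference passed the test. Whether the Ddah1 counts include reads of the transgene is not given in the sources used here. Genotypes are given as labelled. In lung homogenate, fewer cells of a type and less RNA per cell cannot be told apart.

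A single gene made up most of the P450 RNA in PBS-treated lungs. Cyp2f2 took 65.3% and 68.8% of the summed CPM of the 48 genes in WT PBS and 64.9% and 68.9% in TG PBS. After HDM its part was 41.9% and 44.3% in WT and 47.99% and 49.5% in TG. The sum over all 48 genes was 3006 and 3195 CPM in WT PBS, 3268 and 3701 in TG PBS, 1242 and 1162 in WT HDM, and 1353 and 1584 in TG HDM. Both HDM pools thus lay below both PBS pools. Without Cyp2f2 the sum was between 995.3 and 1150 CPM in the PBS libraries and between 647.7 and 800.4 in the HDM libraries, again without overlap.

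Levels were compared between genes as CPM per kb of transcript, although the counts are of coding regions. Genes with long untranslated parts therefore read low on this scale. The mean over the 4 groups was 757.0 CPM per kb for Cyp2f2, 120.6 for Cyp4b1, a hydroxylase of fatty acids that also activates furans, and 78.5 for Cyp2b10, an oxidase of drugs and pesticides. Next came Cyp2e1 (32.8), which oxidizes ethanol and small solvents, Cyp2s1 (30.2) of airway epithelium, and Cyp1a1 (27.9), the classical target of the aryl hydrocarbon receptor. Cyp4v3, a fatty acid hydroxylase, followed at 12.6 CPM per kb, and Cyp51, the lanosterol demethylase of cholesterol synthesis, at 9.28. Cyp20a1 (7.71), Cyp2d22 (6.73), Cyp2a5 (6.32), the oxysterol hydroxylase Cyp39a1 (5.69), Cyp2b13 (5.34), Cyp4a31 (5.10) and Cyp1b1 (4.48) completed the 15 highest, and 20 of the 48 genes were below 1 CPM per kb. With coding length in place of transcript length the order of the first 3 was the same, whereas Cyp2e1 moved from rank 4 to rank 6 and Cyp1b1 from rank 15 to rank 9. Cyp26b1 moved from rank 17 to rank 13 and Cyp2b13 from rank 13 to rank 17, so the 15 highest differ by this measure. Per kb of coding sequence, Cyp51 was at 24.2 CPM and Cyp1b1 at 14.1. Neighbours from Cyp2e1 to Cyp1a1 are close enough for their order to depend on the group.

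**Figure D1:**
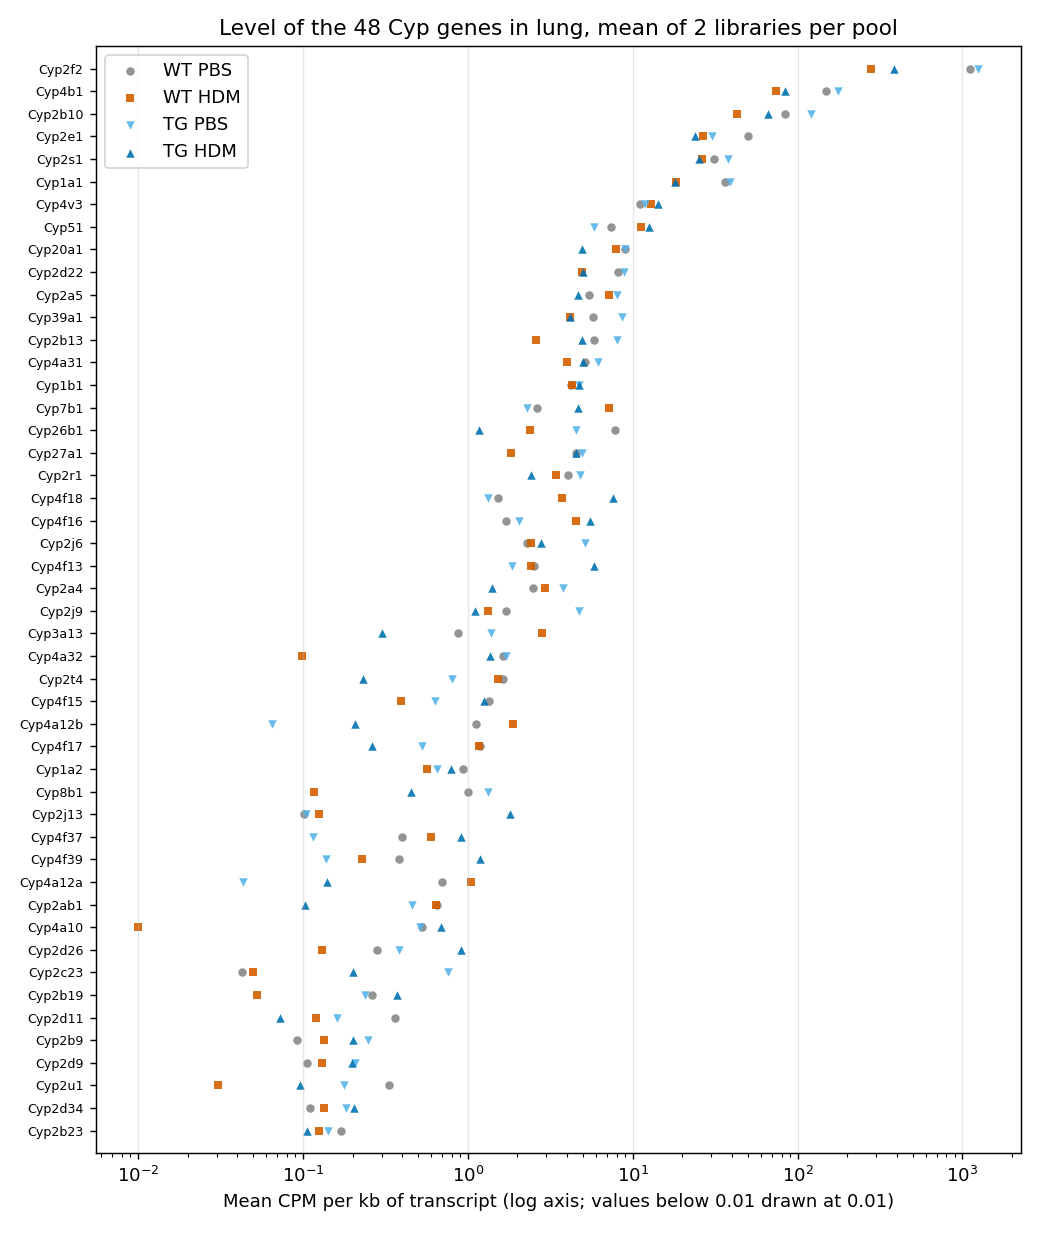
Mean level of each of the 48 P450 genes in the 4 groups, in CPM per kb of transcript on a log axis, ordered by the mean over groups, where each symbol is the mean of 2 libraries. Cyp2f2 stands above all others, and its PBS symbols, at 1115 and 1252 CPM per kb, lie to the right of its HDM symbols, at 277.3 and 383.9.

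Comparing HDM with PBS within a genotype asks what allergen challenge went with in these pools. In WT lungs, 6 of the 36 P450 genes tested were lower after HDM and 0 were higher by edgeR's quasi-likelihood test at an adjusted p of 0.05, where 6.74% of all 15123 genes were called, 2.30% as lower and 4.44% as higher. DESeq2 called 1 as higher, Cyp7b1, and at an unadjusted p of 0.05 edgeR counted 13 genes in either direction, or 15 in TG, where 19.9% and 27.7% of all genes passed. In TG lungs, 5 of 37 were lower and 2 were higher, where 13.8% of all 15086 genes were called, 5.35% as lower and 8.43% as higher. Cyp2f2, Cyp1a1, Cyp2b10, Cyp4b1 and Cyp26b1 were called lower in both genotypes, which is 83.3% of the WT calls and 71.4% of the TG calls. The comparisons share no library, and over all genes 55.1% of the WT calls and 27.0% of the TG calls were called in the other genotype. The median log2 fold change of the tested P450 genes was -0.21 in WT and -0.33 in TG, against 0.02 and 0.03 for all genes. Of the 32 tested in both, 25 (78.1%) had the same sign, compared with 63.6% of 14641 genes. The TG calls rest on both PBS libraries: without TG PBS replicate 1 or without TG PBS replicate 2, Cyp2f2 was the 1 gene still called, of 40 and 38 tested. The share of all genes called fell likewise, to 2.56% and 1.76%. All 8 genes called in either genotype were without overlap between the HDM and PBS libraries of both genotypes. Among tested P450 genes, 13 in WT and 17 in TG had both HDM libraries below both PBS libraries, where 24.7% and 28.0% of all genes did, and 4 in WT and 9 in TG had both above, where 25.0% and 28.8% did.

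**Figure D2:**
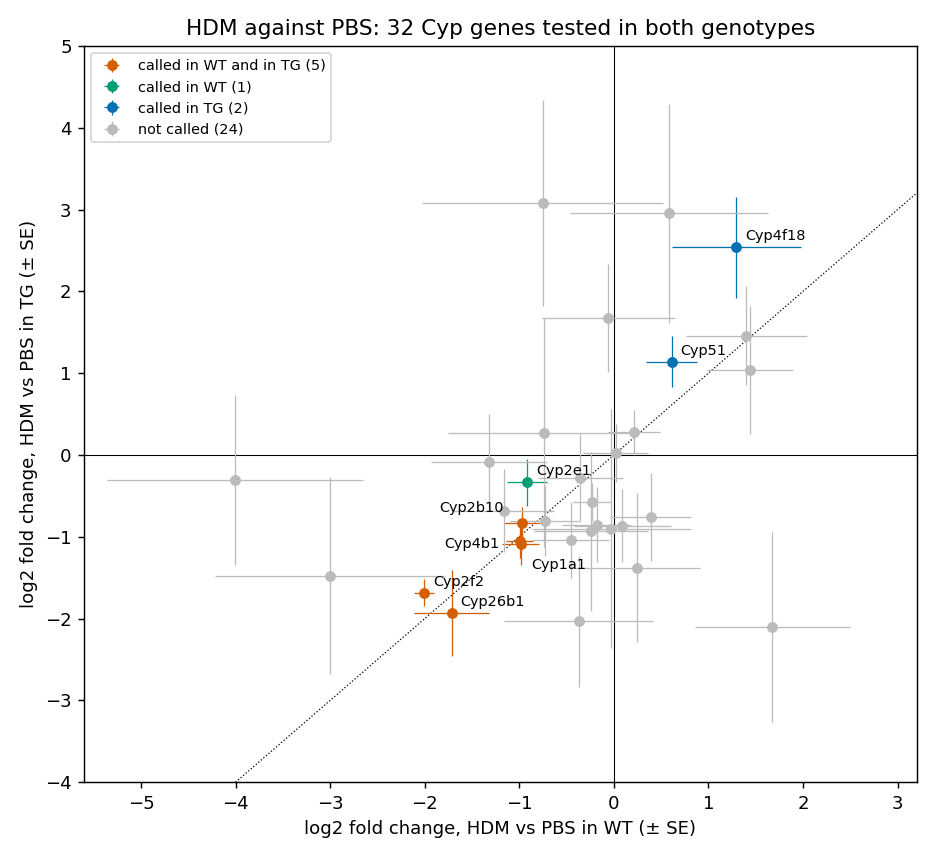
Log2 fold change of HDM against PBS in WT (horizontal axis) and in TG (vertical axis) for the 32 P450 genes tested in both genotypes, with standard errors as bars and equality as the dotted line. The 5 genes called in both genotypes lie in the lower left, Cyp2f2 with the smallest bars, and Cyp51 and Cyp4f18 lie in the upper right.

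Among families 1 to 3, 4 of the 14 tested genes were lower in WT and 3 of 14 in TG, with median log2 fold changes of -0.48 and -0.72. Cyp2f2 (Entrez 13107, chromosome 7 of GRCm38 from 27119955 to 27133660) was 1962 and 2199 CPM in WT PBS and 520.4 and 514.5 CPM in WT HDM. In TG it was 2120 and 2552 CPM in PBS and 649.4 and 783.5 CPM in HDM. Every PBS library was thus far above every HDM library, and TG HDM lay somewhat above WT HDM. The log2 fold change was -2.01 (SE 0.10, edgeR adjusted p = 1.88e-08) in WT and -1.68 (SE 0.16, edgeR adjusted p = 6.55e-05) in TG, or 4.02-fold and 3.21-fold lower levels after HDM. It was called whichever library was left out, with log2 fold changes from -2.09 to -1.93 in WT and from -1.83 to -1.55 in TG. The transcript shares 10.02% of its stretches of 50 bases with the predicted gene Gm15883 and none with another P450 gene at that share.

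Cyp1a1 (Entrez 13076, chromosome 9 from 57687928 to 57703824) was 96.3 and 100.6 CPM in WT PBS and 47.2 and 52.3 CPM in WT HDM. The TG libraries had 98.3 and 110.4 CPM in PBS and 40.9 and 56.1 CPM in HDM. All PBS libraries were above all HDM libraries, at about the same level in both genotypes. The log2 fold change was -0.99 (SE 0.19, edgeR adjusted p = 0.00678) in WT and -1.08 (SE 0.26, edgeR adjusted p = 0.0159) in TG, where the adjusted p was 0.121 without TG PBS replicate 1 and 0.205 without TG PBS replicate 2. The related Cyp1b1, which also acts on oestrogens and on polycyclic hydrocarbons, lay between 16.9 and 26.7 CPM in all libraries with log2 fold changes of 0.02 and 0.03. Cyp1a2, a liver enzyme, had between 3 and 30 counts in a library. None of the 7 tested genes of the aryl hydrocarbon receptor list passed the test in either genotype, with a median log2 fold change of -0.16 in WT and -0.32 in TG, and Ahr itself was at -0.28 and -0.38.

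Cyp2b10 (Entrez 13088, chromosome 7 from 25897658 to 25926624) was 176.4 and 146.6 CPM in WT PBS and 96.7 and 68.0 CPM in WT HDM. In TG it was 237.4 and 223.1 CPM in PBS and 118.7 and 136.1 CPM in HDM. Both TG libraries lay above both WT libraries within each treatment. The log2 fold change of HDM against PBS was -0.97 (SE 0.19, edgeR adjusted p = 0.00763) in WT and -0.83 (SE 0.20, edgeR adjusted p = 0.0159) in TG, where the adjusted p was 0.183 without TG PBS replicate 1 and 0.171 without TG PBS replicate 2. The nuclear receptor CAR (Nr1i3), the known regulator of Cyp2b10 in liver, was at most 1.05 CPM, and none of the tested receptors of its list (6 in WT, 5 in TG) passed the test.

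Cyp2e1 (Entrez 13106, chromosome 7 from 140763819 to 140774990) was 99.9 and 84.4 CPM in WT PBS and 41.9 and 55.7 CPM in WT HDM. In TG it was 53.0 and 58.5 CPM in PBS and 36.1 and 51.3 CPM in HDM. The WT PBS pool stood above the other 3 pools, which lay close together. In WT the log2 fold change was -0.92 (SE 0.22, edgeR adjusted p = 0.0196), and without WT PBS replicate 1 it was -0.79 (adjusted p = 0.140). In TG it was -0.33 (SE 0.29, edgeR adjusted p = 0.509), and the difference between the genotypes did not pass the test (interaction 0.57, edgeR adjusted p = 0.503). Cyp2e1 is also made by fat cells, and 10 adipocyte markers summed to 127.2 and 146.2 CPM in WT PBS, between 79.3 and 82.0 in WT HDM, between 54.4 and 71.8 in TG PBS and between 129.7 and 135.4 in TG HDM. Of the 8 adipocyte genes tested in WT, 1 (Pck1) was lower after HDM and 0 were higher, with a median log2 fold change of -1.02. Of the 8 tested in TG, 1 (Cidec) was lower and 1 (Fabp4) was higher, with a median of 1.88. The defining marker Lep was at 0 in all pools but WT PBS, and Ucp1 was at 0 in WT HDM and TG PBS. Their part in the Cyp2e1 result was not tested.

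Upstream sequence is shown for Cyp2f2 and Cyp2b10, which fell in both genotypes and lie in the same gene cluster, for Cyp1a1 as the standard target of the aryl hydrocarbon receptor, and for Cyp51 as the sterol-regulated gene that rose. Each is the 250 bases before a transcript start of the gene from RefSeq on GRCm38.p6, 5′ to 3′ on the gene's strand. For Cyp1a1 this start lies inside the gene range given above, which begins at a transcript start further upstream. Capitals mark matches on either strand to GCGTG (the core of the xenobiotic response element), TTGCNNAA (C/EBP), ATCACC (the first letters of the sterol regulatory element) or TATAAA (the TATA motif), which were chosen with the results known.
Cyp2f2, chr7:27119705-27119954, plus strand: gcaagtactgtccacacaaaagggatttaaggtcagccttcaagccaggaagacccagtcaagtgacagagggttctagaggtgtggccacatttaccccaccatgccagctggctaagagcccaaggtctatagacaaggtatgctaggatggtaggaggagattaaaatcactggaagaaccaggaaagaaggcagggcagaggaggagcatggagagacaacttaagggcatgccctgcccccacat
Cyp2b10, chr7:25897408-25897657, plus strand: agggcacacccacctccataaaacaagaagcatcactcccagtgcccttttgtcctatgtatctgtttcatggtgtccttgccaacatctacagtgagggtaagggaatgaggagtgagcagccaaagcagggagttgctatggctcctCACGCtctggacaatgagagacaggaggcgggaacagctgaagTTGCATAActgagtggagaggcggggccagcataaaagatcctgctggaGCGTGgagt
Cyp1a1, chr9:57697363-57697612, plus strand: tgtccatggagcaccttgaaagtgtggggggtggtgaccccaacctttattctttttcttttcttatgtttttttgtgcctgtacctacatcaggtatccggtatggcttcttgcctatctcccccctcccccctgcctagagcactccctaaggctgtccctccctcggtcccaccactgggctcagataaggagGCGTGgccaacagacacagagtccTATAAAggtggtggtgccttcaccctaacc
Cyp51, chr5:4104698-4104947, minus strand: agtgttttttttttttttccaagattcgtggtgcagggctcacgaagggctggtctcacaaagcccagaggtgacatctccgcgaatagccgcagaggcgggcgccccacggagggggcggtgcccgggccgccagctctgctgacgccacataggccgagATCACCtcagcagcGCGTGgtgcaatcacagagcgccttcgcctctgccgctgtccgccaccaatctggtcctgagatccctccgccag

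Cyp1a1 holds GCGTG at bases -54 to -50 and TATAAA at -30 to -25 before that start. Cyp2b10 holds GCGTG on each strand and has a C/EBP match between them. In Cyp51, ATCACC lies at -89 to -84, ahead of a GCGTG at -75 to -71. Cyp2f2 holds none of these letters in this window. No match overlaps another in these 4 sequences. Such windows were at hand for 37 of the 48 genes, and GCGTG occurred in 11 of them, TTGCNNAA in 9, TATAAA in 11 and ATCACC in 1, Cyp51. Among all 32851 promoters of the table, 28.2% hold GCGTG, 9.56% TTGCNNAA, 12.4% TATAAA and 8.48% ATCACC. The genes with GCGTG include both Cyp1a1, which fell, and Cyp1b1, which did not pass the test.

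The other members of families 1 to 3 did not pass the test. Cyp2s1 was 74.7 and 95.9 CPM in WT PBS, 78.8 and 66.4 in WT HDM, 100.7 and 108.5 in TG PBS and 64.5 and 73.9 in TG HDM. Its groups overlapped in WT (log2 fold change -0.23, SE 0.20, edgeR adjusted p = 0.591) and did not in TG (-0.57, SE 0.23, edgeR adjusted p = 0.127). Cyp2a5, which oxidizes coumarin and nicotine, had log2 fold changes of 0.39 in WT and -0.76 in TG, and its neighbour Cyp2a4, a steroid hydroxylase, of 0.24 and -1.38. Those genes share 31.0% and 36.1% of their stretches of 50 bases with each other, so reads of one may be counted under the other. Cyp2d22 was at -0.73 and -0.81 and Cyp2b13 at -1.16 and -0.68. The latter shares 27.3% of its stretches with other genes.

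Many P450 genes lie in clusters, and called genes were compared with their neighbours there. The Cyp2 cluster of chromosome 7, between 25802469 and 27158564, holds 10 of the 48 genes, and 7 were tested in each genotype. Cyp2b10 and Cyp2f2 were called there, and the other 5 in each genotype had log2 fold changes from -1.16 to 0.39 in WT and from -1.38 to 0.65 in TG. The median of the tested genes was -0.23 in WT and -0.76 in TG. Cyp2t4, the member that follows Cyp2f2 on the chromosome, was at -0.10 in WT with an SE of 0.89. On chromosome 4, where 9 Cyp2j, Cyp4a and Cyp4b members lie, Cyp4b1 was called and the other 6 of the 7 tested were not in either genotype. None of the 6 Cyp4f members of the cluster on chromosome 17 passed the test, with a median of -0.03 over 5 tested in WT and 1.56 over 6 in TG.

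**Figure D3:**
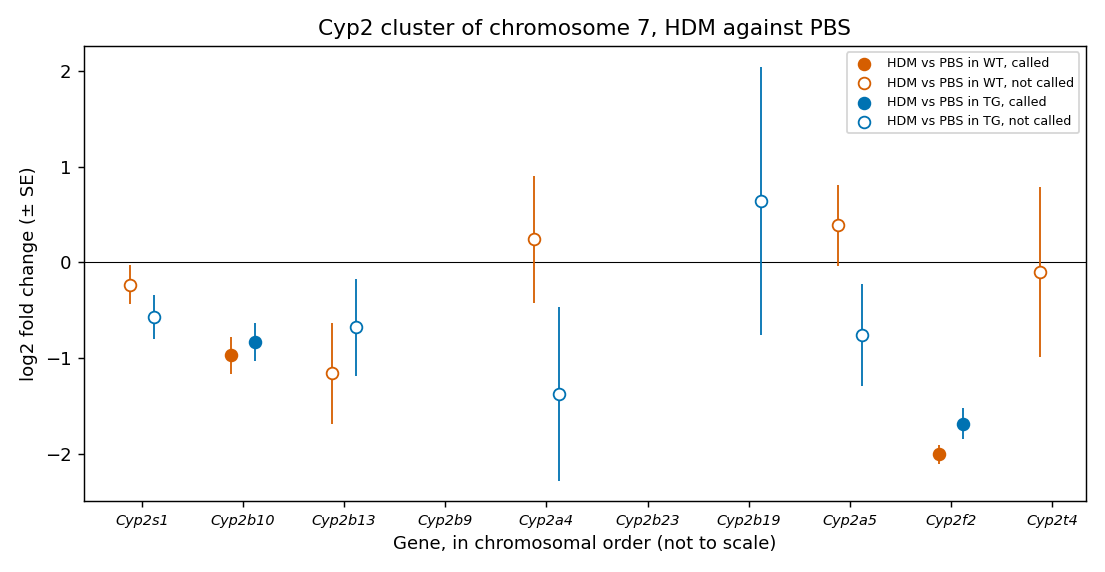
Log2 fold change of HDM against PBS, with standard errors as bars, for the 10 P450 genes of the Cyp2 cluster on chromosome 7 in chromosomal order, where filled circles passed the test and genes without a circle were not tested. Cyp2b10 and Cyp2f2 have the filled circles, between -0.83 and -2.01, and the genes around them have open circles on both sides of 0. The open circles have wide bars except for Cyp2s1, with an SE of 0.20 in WT and 0.23 in TG.

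Of the fatty acid and eicosanoid group, 1 of 14 tested genes was lower in WT, while in TG 1 of 15 was lower and 1 was higher. Cyp4b1 (Entrez 13120, chromosome 4 from 115624698 to 115647721) was 285.9 and 275.4 CPM in WT PBS and 146.5 and 135.5 CPM in WT HDM. In TG it was 343.3 and 322.4 CPM in PBS and 127.4 and 189.7 CPM in HDM. Every PBS library was above every HDM library. The log2 fold change was -0.99 (SE 0.14, edgeR adjusted p = 0.000535) in WT and -1.05 (SE 0.21, edgeR adjusted p = 0.00729) in TG, where the adjusted p was 0.128 without TG PBS replicate 1 and 0.124 without TG PBS replicate 2. Cyp4f18 (Entrez 72054, chromosome 8 from 71988482 to 72009668), which inactivates leukotriene B4 in myeloid cells, was 2.41 and 2.78 CPM in WT PBS and 6.34 and 6.43 in WT HDM. It was 2.30 and 2.22 CPM in TG PBS and 12.6 and 13.4 in TG HDM. The HDM libraries were higher in both genotypes, and the test was passed in TG (log2 fold change 2.54, SE 0.62, edgeR adjusted p = 0.0182) and not in WT (1.29, SE 0.68, edgeR adjusted p = 0.319). The TG call was lost without TG PBS replicate 1 (adjusted p = 0.0960) or TG PBS replicate 2 (adjusted p = 0.116), and the genotypes did not differ by the test of the difference (interaction 1.22, edgeR adjusted p = 0.558). Markers of the eosinophils and macrophages of allergic lung were also higher after HDM. Of the genes tested, 7 of 9 were called higher in WT and 7 of 8 in TG. The 10 genes summed to between 534.5 and 704.8 CPM in the PBS libraries. After HDM the sum was 11607 and 11826 CPM in WT and 4506 and 5505 in TG. Between the HDM pools, Cyp4f18 was higher in TG without passing the test (log2 fold change 1.06, edgeR adjusted p = 0.334), and the marker sum was higher in WT. Of the 9 markers tested there, 4 were called lower in TG (Chil4, Arg1, Chil3 and Rnase2a) and 0 higher. Epx, the eosinophil peroxidase, was at 0 in all pools but TG HDM. Their part in the Cyp4f18 result was not tested. Cyp4v3 was between 32.0 and 54.4 CPM in all libraries and did not pass the test (log2 fold changes 0.21 and 0.28, the first -0.12 without WT PBS replicate 2).

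Cyp26b1 (Entrez 232174, chromosome 6 from 84571414 to 84593908), which breaks down retinoic acid, was 43.4 and 26.9 CPM in WT PBS and 14.2 and 7.13 in WT HDM. It was 25.3 and 15.6 CPM in TG PBS and 3.59 and 6.89 in TG HDM. The libraries of each pool differed widely, yet those of PBS and HDM did not overlap. The log2 fold change was -1.72 (SE 0.40, edgeR adjusted p = 0.0189) in WT and -1.93 (SE 0.53, edgeR adjusted p = 0.0310) in TG. Among the genes called in both genotypes, this call was lost under the most alternatives. It was lost in WT without WT PBS replicate 1 (adjusted p = 0.151) and in TG without TG PBS replicate 1 (0.235), TG PBS replicate 2 (0.0987) or TG HDM replicate 1 (0.0759), and with an offset for transcript length (0.0703). Among 13 other genes of retinoic acid metabolism and signalling, Aldh1a1, which makes retinoic acid, was lower in both genotypes (log2 fold changes -1.62 and -1.14), Dhrs9 was higher in WT (2.06) and Rdh10 was higher in TG (1.58). The latter 2 enzymes oxidize retinol.

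Of the 6 sterol and vitamin D genes, 1 was called in TG, as higher. In WT 0 were called by edgeR and 1 by DESeq2 (Cyp7b1), with 4 at an unadjusted p below 0.05. Cyp51 (Entrez 13121, chromosome 5 from 4080674 to 4104697) was 25.4 and 32.7 CPM in WT PBS and 44.9 and 44.1 in WT HDM. It was 20.6 and 25.1 CPM in TG PBS and 46.3 and 52.9 in TG HDM. Every HDM library was above every PBS library. The log2 fold change was 1.14 (SE 0.31, edgeR adjusted p = 0.0312) in TG and 0.61 (SE 0.27, edgeR adjusted p = 0.222) in WT, and the difference between them did not pass the test (interaction 0.51, edgeR adjusted p = 0.615). The TG call was lost without TG PBS replicate 1 (adjusted p = 0.226), TG PBS replicate 2 (0.166) or TG HDM replicate 2 (0.0681). Of 22 other genes of cholesterol synthesis, 2 were higher in WT, among them Dhcr7 (log2 fold change 2.03), which makes cholesterol in the last step of the pathway, and 0 were lower. In TG 0 were higher and Srebf2, the regulator of the pathway, was lower at -1.01. The median over the 22 genes was 0.42 in WT and 0.59 in TG. Cyp7b1, which hydroxylates oxysterols, had 62 and 64 counts in WT PBS and 176 and 153 in WT HDM, a log2 fold change of 1.44 (SE 0.46, edgeR adjusted p = 0.0805, and 0.0456 with DESeq2). In TG its PBS libraries had 14 and 81 counts, so that the groups overlapped (1.04, SE 0.78). Cyp27a1, the mitochondrial sterol hydroxylase, had log2 fold changes of -1.32 in WT (edgeR adjusted p = 0.250) and -0.08 in TG. Of the vitamin D enzymes outside the 48 genes, Cyp24a1 had 0 counts in all libraries and Cyp27b1 had 7, all in TG PBS replicate 2.

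**Figure D4:**
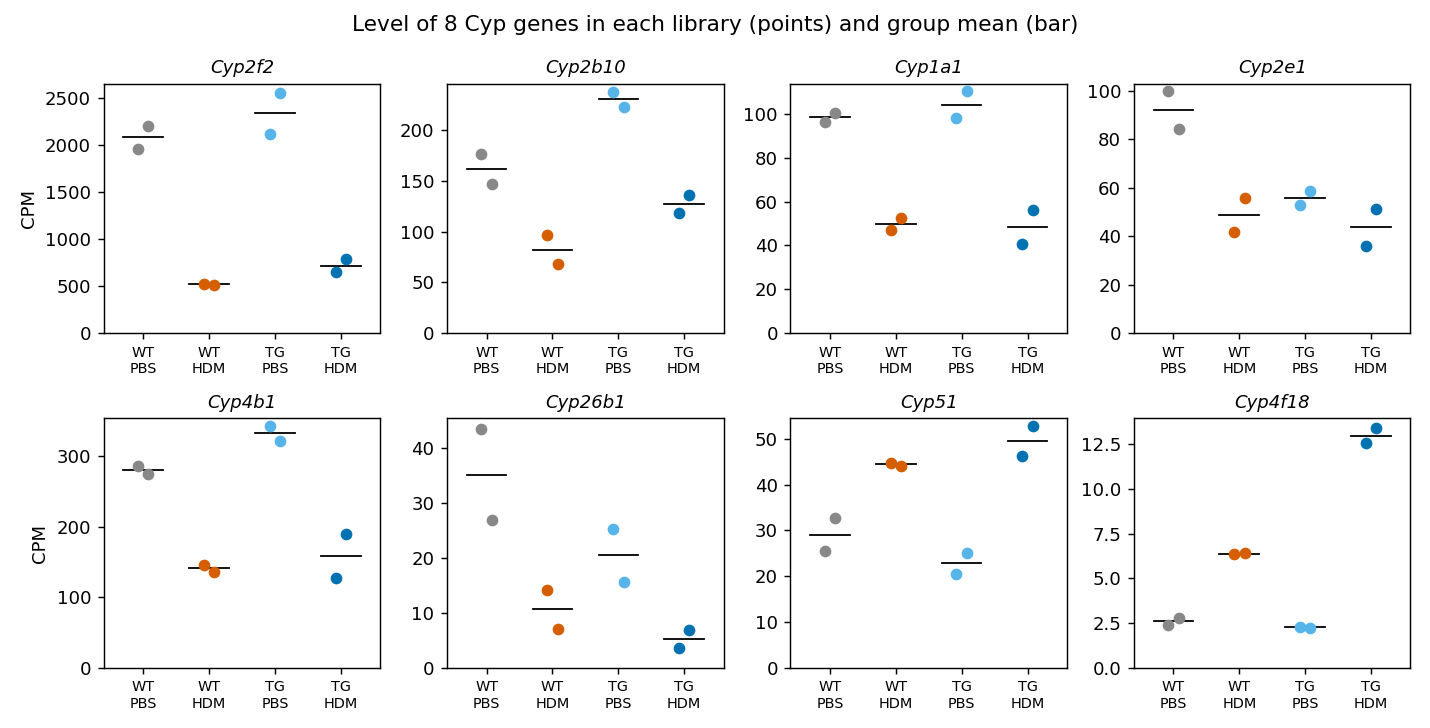
CPM in each of the 8 libraries (points) and the mean of each group (bar) for the 8 P450 genes called in either HDM against PBS comparison, with each vertical axis starting at 0. Points of PBS and HDM do not overlap within a genotype in any panel, 6 genes lie lower after HDM, and Cyp51 and Cyp4f18 lie higher.

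Comparing TG with WT within a treatment asks what the transgene went with. Of 38 P450 genes tested in PBS, 0 were called by edgeR, where 0.657% of all 14926 genes were, and 7 were at an unadjusted p below 0.05, as were 9.98% of all genes. DESeq2 called 1 of 44, Cyp2e1, and 1.36% of its 15977 genes. Of 35 tested in HDM, 0 were called by edgeR, where 2.44% of all 15191 genes were, and 4 were at an unadjusted p below 0.05, against 16.2%. DESeq2, which gave an adjusted p for 22 of the P450 genes there, called 0 of them and 7.56% of its 11815 genes. The difference between the genotype effects in HDM and in PBS was called for 0 of 41 genes by edgeR, where 1.76% of all 15868 genes were called, with 2 at an unadjusted p below 0.05, against 14.7%. DESeq2 called 0 of 36 and 4.55% of its 14800 genes. Median log2 fold changes by role lay between -0.79 and 0.16 in PBS and between -0.98 and 0.49 in HDM. The lower ends are values of 1 gene, Cyp26b1. For roles with more than 1 gene the medians lay between -0.13 and 0.16 in PBS and between 0.03 and 0.49 in HDM. With 2 libraries a group, a gene that missed the threshold is not shown to be equal between genotypes.

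Values of the more abundant genes and of those at a low unadjusted p are given next. In PBS, Cyp2e1 was at -0.74 (log2 fold change of TG against WT, SE 0.20, edgeR adjusted p = 0.125), and it passed the test with DESeq2 (adjusted p = 0.0488) and without the low-count filter (0.0427). In that comparison the 7 tested adipocyte genes had a median of -2.07, with Cfd called lower, and 4 of 10 thymocyte genes were lower and 7 of 9 skeletal muscle genes higher. Their part in the Cyp2e1 value was not tested. Cyp2b10 was at 0.50 (SE 0.15, edgeR adjusted p = 0.173) in PBS and 0.67 (SE 0.24, edgeR adjusted p = 0.187) in HDM. Cyp2f2 was at 0.16 in PBS (edgeR adjusted p = 0.639) and 0.51 in HDM (SE 0.17, edgeR adjusted p = 0.151). It passed the test in PBS without TG PBS replicate 1 (0.29, adjusted p = 0.0409), and in HDM without TG HDM replicate 1 (0.62, adjusted p = 0.0133) and in one fit of all 8 libraries (0.47, adjusted p = 0.0466). Cyp26b1 was at -0.79 in PBS (edgeR adjusted p = 0.442). Cyp2j6, an epoxygenase of arachidonic acid, was 10.4 and 6.04 CPM in WT PBS and 20.6 and 16.7 in TG PBS, without overlap (1.17, SE 0.44, edgeR adjusted p = 0.335). Its relative Cyp2j9 was 4.22 and 2.78 CPM in WT PBS and 5.09 and 14.2 in TG PBS (1.45, SE 0.64, edgeR adjusted p = 0.456), and passed the test without TG PBS replicate 1 (2.02, adjusted p = 0.0404) but was at 0.55 without TG PBS replicate 2 (adjusted p = 0.866).

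Some large differences rested on single libraries. Cyp3a13, a steroid and drug oxidase of gut and liver, had 163 and 20 counts in WT HDM and 1 and 21 in TG HDM (log2 fold change -3.08, SE 1.15, edgeR adjusted p = 0.209). The value was -1.11 without WT HDM replicate 1 (adjusted p = 0.886) and -5.62 without TG HDM replicate 2 (adjusted p = 0.00283). Cyp2j13 had 99 counts in TG HDM replicate 1 and 11 in TG HDM replicate 2, against 2 to 10 in the other libraries. Its log2 fold change of HDM against PBS in TG was 4.08 (SE 1.29, edgeR adjusted p = 0.0557), and it was 0.88 without TG HDM replicate 1 (adjusted p = 0.868) and 4.98 without TG HDM replicate 2 (adjusted p = 0.000610). Against WT HDM it was 3.83 (SE 1.32, edgeR adjusted p = 0.168), 0.64 without TG HDM replicate 1 (adjusted p = 0.963) and 4.76 without TG HDM replicate 2 (adjusted p = 9.52e-05). The neighbours Cyp4a12a and Cyp4a12b, fatty acid hydroxylases known for higher levels in male liver and kidney, had fewer counts in both TG PBS libraries than in either WT PBS library. Cyp4a12a had 19 and 18 counts in WT PBS and 0 and 2 in TG PBS, a ratio of WT to TG of 16.2 per scaled library size with an exact 95% interval of 4.19 to 139.0 (edgeR adjusted p = 0.308). Cyp4a12b had 28 and 31 counts in WT PBS and 1 and 2 in TG PBS, a ratio of 17.3 with an interval of 5.62 to 86.1 (edgeR adjusted p = 0.174). The intervals cover counting error only, and neither difference passed the test. After HDM a single library held most of their counts: WT HDM replicate 1 had 57 and 101, WT HDM replicate 2 had 0 of each, and the TG HDM libraries had at most 7. Of the stretches of Cyp4a12b, 49.4% are shared with Cyp4a12a, so reads of one may be counted under the other.

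The spread between libraries of a pool was larger for genes with fewer counts. For the 15 genes with 1000 or more counts in all, the libraries of a pool differed by a median of 0.28 on the log2 scale, with 1.37 as the highest value. For the 21 genes with 100 to below 1000 counts the median was 0.56, and for the 12 with fewer it was 0.64. A ratio of 4-fold or more between libraries of one pool occurred 12 times among 192 pairs, 6 of them in TG HDM, and never among the 15 most counted genes. The genes called after HDM other than Cyp4f18, which had 494 counts, all belong to these 15.

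The electron donors and partner enzymes were examined as context. Por, the P450 reductase that serves the microsomal enzymes, was lower after HDM in WT (log2 fold change -0.94, edgeR adjusted p = 0.0110) and at -0.35 in TG (edgeR adjusted p = 0.320). Pgrmc1, a haem-binding partner of P450 enzymes, was lower in both (-1.06 and -0.78, edgeR adjusted p = 0.00199 and 0.0471). The other 8 of the 10 electron partners did not pass the test. Of 16 oxidizing or hydrolysing enzymes outside the P450 family, 7 were lower and 0 were higher in each genotype. Aldh1a1, Cbr2, Fmo1 and Fmo2 were lower in both, Cbr2 by -1.41 and -1.22 and Fmo2 by -1.25 and -1.33. Of the conjugating enzymes, Gsta3, Gstm1, Gstm2 and Gstm3 were lower and Gsto1 was higher among 17 tested in WT, and Gsta3, Gstm1 and Gstm3 were lower and Gstp1, Gstp2 and Gsto1 were higher among 18 in TG. Tbxas1, the thromboxane synthase and a P450 without a Cyp symbol, was higher in both (2.17 and 2.90).

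Markers of the cell types known to hold these enzymes were read in the same libraries. Each marker list held 10 genes. The club cell markers summed to between 29659 and 53502 CPM in the PBS libraries and between 12608 and 17312 in the HDM libraries, and Scgb1a1, the main secretory protein of these cells (log2 fold changes -1.46 and -1.95), made up between 91.4% and 95.3% of that sum in PBS and between 69.3% and 74.5% in HDM. Of the 10 club cell genes, 6 were lower and 2 higher in WT, and 3 were lower and 4 higher in TG. Retnla and Muc5b, which allergic airways are known to induce, were higher in both genotypes. The secretoglobins Scgb3a2, which was lower in WT, and Scgb3a1 were higher in TG. The median log2 fold change of the 10 genes was -0.82 in WT and 0.39 in TG. No marker was at 0 in any group. Endothelial markers, relevant because Cyp1a1 is also made in lung endothelium, summed to between 2213 and 2679 CPM in PBS and between 1193 and 1711 in HDM, with 3 of 10 lower in WT and 5 of 10 in TG. Ciliated cell markers summed to between 441.8 and 559.9 CPM in PBS and between 265.2 and 346.0 in HDM, with Tppp3 alone called, lower in both genotypes. Alveolar type 2 markers summed to between 29057 and 38249 CPM in PBS and between 23511 and 33266 in HDM. Of these 10, Sftpa1 and Sftpd were higher and Lyz2 and Sftpc lower in WT. In TG, Sftpd was higher and Sftpb and Slc34a2 were lower. The part of these cells in the P450 differences was not tested.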

How the data were processed

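The files hold gene counts of 8 lung libraries, 2 from each of 4 pools of 4 mice, grouped by their titles. RNA was amplified (SPIA), sequenced as single reads of 50 bases, and aligned by the authors to mm10 (GRCm38) with TopHat. The deposited values are the authors' raw read counts in coding regions for 23469 Entrez identifiers, without normalization. Versions of the aligner and annotation, and whether counting used strand, are not given in the sources used here. The library totals above set the counting precision. The paper does not say whether PCR copies were removed before counting, and floors cover counting error only.

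Symbols came from RefSeq on GRCm38.p6 (23372 identifiers) and from the paper's tables (7), and 90 had none. Transcript lengths came from GENCODE. Tests used the quasi-likelihood method of edgeR 4.0.16 (R 4.3.3) on the 4 libraries a comparison concerns, with TMM scaling and filterByExpr (count minimum 10), and all 8 for the interaction. P-values were adjusted over all genes tested by Benjamini-Hochberg, with a threshold of 0.05. The SE is the size of the log2 fold change divided by the square root of F. CPM in the text are on 1 TMM scale over all 8 libraries. Scripts were tested on simulated data.

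Named genes were the 15 with the highest level per transcript length, every P450 gene called in any comparison, and a fixed list of lung, steroid and vitamin D enzymes. Cyp2j6, Cyp2j9, Cyp2j13, Cyp3a13 and Cyp4a12b, the neighbours in clusters and the motifs were chosen after their values were seen. The members and lists were chosen with earlier results of these data known. Alternatives were RLE size factors, DESeq2 1.42.0, no low-count filter, a replicate block, library sizes without Rn45S and haemoglobin genes, a length offset, a log2 fold change of at least 1, all 8 libraries in one fit, and leaving out each library. The deposited table was used whole, and protein sequences were not used here. The values of 1 gene of the context lists are not reported here.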

Additional observations from a re-analysis of the deposited data

Results flagged for a closer look

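No P450 gene passed the interaction test of the response to HDM between genotypes, but 8 genes of the pathway and club cell lists did (edgeR adjusted p below 0.05, log2 interaction as TG minus WT). Of all 15868 genes, 1.76% were called. Genes tested were 10 for club cells, 12 for haem, 16 for oxidizing or hydrolysing enzymes outside P450 and 22 for cholesterol synthesis. The other pathway lists had 0 called. Among club cell genes, Scgb3a2 had an interaction of 2.68, with 187.2 and 246.8 CPM in WT PBS, 48.2 and 61.6 in WT HDM, 272.4 and 226.8 in TG PBS and 427.8 and 379.8 in TG HDM. It was thus lower after HDM in WT and higher in TG. Bpifa1 was at 2.51 and Scgb3a1 at 1.18, and Retnla was at -1.38 while it was higher after HDM in both genotypes. Of the haem genes, Hmox1, which breaks down haem, was at 1.96, and Cpox of haem synthesis at -1.94. The carboxylesterase Ces1d was at 1.13, being lower after HDM in WT (-0.98) and at 0.17 in TG. Srebf2 was at -1.49, with 0.46 in WT and -1.01 in TG. In the other marker lists 13 genes were called as well, 6 of them among the 10 skeletal muscle genes tested.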

How the results depend on the processing

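Counts of P450 genes called depended on single libraries. For HDM against PBS in TG the count was 7, and between 1 and 8 with 1 library left out (1 without TG PBS replicate 1 and 1 without TG PBS replicate 2), while 1.76% to 17.3% of all genes were called. In WT it was 6, and between 4 and 8 with 1 library left out (4.14% to 10.6% of all genes), and 2 at a log2 fold change of at least 1 (Cyp2f2 and Cyp26b1). For TG against WT in PBS the count of 0 became 1 with DESeq2, and 1 when low counts were kept (Cyp2e1 in both), and lay between 0 and 2 with 1 library left out (2 without TG PBS replicate 1, Cyp2f2 and Cyp2j9, with 0.484% to 2.76% of all genes). In HDM the count of 0 became 2 without the low-count filter and 1 in one fit of all 8 libraries, and lay between 0 and 2 with 1 library left out (1 without TG HDM replicate 1 and 2 without TG HDM replicate 2, with 0.0380% to 10.2% of all genes). For the interaction it lay between 0 and 1 (1 without TG HDM replicate 2, Cyp3a13, with 0.832% to 4.35% of all genes). The cause was not tested.

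Same-numbered libraries of different groups did not deviate together (correlations from -0.02 to 0.03), so the numbers name libraries only. With a replicate block the counts were 0, 0, 6, 8 and 0 for the genotype comparisons in PBS and HDM, HDM against PBS in WT and TG, and the interaction. Of 38 fold changes given, 247 of 257 values under other settings (DESeq2 values without an adjusted p left out) and 148 of 172 with 1 library left out kept direction and side of the threshold, and 1 changed sign: Cyp4v3 for HDM against PBS in WT was between -0.12 (without WT PBS replicate 2) and 0.62 with 1 library left out. The length offset raised the median of all genes in TG by 0.07. Depth limits the 12 genes with 20 to 99 counts.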
